A study of Mus musculus with 9 samples.

Results

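The genes of the striatal cholinergic interneuron were examined in the striatum of mice given MPTP, a toxin that dopamine neurons take up in its converted form and that damages their mitochondria. They are Chat, Slc5a7, Slc18a3, Ache, Lhx8 and Slc17a8, chosen by name as the probe sets whose only gene symbol in the platform annotation is one of these. Each gene had 1 such probe set, so the set holds 6 of the 19935 genes measured by a probe set with 1 symbol. All 6 passed the filter on low values (a mean over the arrays of at least 5.89 on the log2 scale), which left 16335 probe sets of 14880 genes to be tested.

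The values are log2 intensities of 9 single-colour arrays, 3 for each group. The control group had received saline in 4 injections 2 h apart and was sampled after 1 week. The acute group had received MPTP (the labels give it as free base MPTP HCl) at 20 mg/kg in 4 intraperitoneal injections 2 h apart and was also sampled after 1 week. The chronic group had received 4 mg/kg once a day over 20 days, with tissue taken at 8 weeks. Both MPTP groups thus had 80 mg/kg in total. Regimen and time changed together between the chronic group and the other groups, so their parts in a difference cannot be told apart. The labels give no strain, age or genotype and do not tie the arrays to separate animals, so p-values measure only the spread between these samples. In whole tissue, fewer cells of a type and less RNA per cell cannot be told apart either.

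Cholinergic interneurons are a small minority of striatal neurons and supply most of the acetylcholine there. Choline enters the terminal through Slc5a7, the high-affinity choline transporter. It is acetylated by Chat, choline acetyltransferase, and the product is loaded into vesicles by Slc18a3, the vesicular acetylcholine transporter. Ache, acetylcholinesterase, breaks the transmitter down after release. Lhx8 is a LIM homeodomain transcription factor needed for the development of these neurons, and Slc17a8 is the vesicular glutamate transporter VGLUT3, which lets them release glutamate as well. Dopamine acting on D2 receptors inhibits these neurons, and their balance with dopamine is a long-standing subject in parkinsonism.

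Chat and Slc18a3 share a locus: Slc18a3 lies inside the Chat gene, on the same strand, and 1059 bases separate the start sites used here. Whether the Slc18a3 probe set also reads unspliced Chat RNA was not tested. The 250 bases before the start sites of these 2 genes and of Slc5a7 are shown because these 3 genes supply the transmitter. The sequences are from RefSeq, assembly GRCm38.p6, and all lie on the minus strand. They span chr14:32465910-32466159 for Chat, chr14:32464851-32465100 for Slc18a3 and chr17:54299035-54299284 for Slc5a7. Each is printed 5′ to 3′ up to the base before the start site, with motif matches in capitals.
Chat: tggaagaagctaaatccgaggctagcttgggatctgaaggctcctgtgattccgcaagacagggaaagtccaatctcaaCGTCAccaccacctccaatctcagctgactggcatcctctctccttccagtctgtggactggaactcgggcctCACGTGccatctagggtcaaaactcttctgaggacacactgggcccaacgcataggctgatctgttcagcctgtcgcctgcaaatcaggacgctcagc
Slc18a3: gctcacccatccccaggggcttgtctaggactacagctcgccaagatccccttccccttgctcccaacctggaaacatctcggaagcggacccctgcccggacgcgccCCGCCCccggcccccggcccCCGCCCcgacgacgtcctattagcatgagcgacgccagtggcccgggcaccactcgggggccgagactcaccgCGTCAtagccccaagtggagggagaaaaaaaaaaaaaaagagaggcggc
Slc5a7: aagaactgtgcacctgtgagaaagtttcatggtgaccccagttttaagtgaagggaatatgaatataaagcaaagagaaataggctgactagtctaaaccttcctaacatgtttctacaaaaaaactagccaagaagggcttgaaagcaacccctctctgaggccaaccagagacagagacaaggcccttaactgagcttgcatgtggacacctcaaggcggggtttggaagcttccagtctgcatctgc

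The motifs were searched on both strands in 32851 windows of the same length, 1 or more for each of 27025 genes. The short cAMP response core TGACG, in capitals in its reverse form, was found once before Chat and once before Slc18a3, and in 17.8% of all windows. The E-box CACGTG was found once before Chat, and in 6.02% of all windows. The GC box GGGCGG was found 2 times in reverse form before Slc18a3, and in 32.7% of all windows. The LIM homeodomain core TAATTA (4.84% of all windows) and the full cAMP response element TGACGTCA (1.55%), which contains the short core, had no match in the 3 windows. None of the 5 motifs was found before Slc5a7. The windows also differed in base composition, with 54.8% G and C for Chat, 66.0% for Slc18a3 and 45.6% for Slc5a7, against a median of 52.4%.

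For the synthetic enzyme, Chat, control arrays 1, 2 and 3 read 6.92, 7.81 and 7.24. The acute arrays read 7.64, 7.49 and 7.52, and the chronic arrays 8.10, 7.64 and 7.97. The means were 7.32 ± 0.45 (SD, n = 3) in the control group, 7.55 ± 0.08 (n = 3) in the acute group and 7.90 ± 0.23 (n = 3) in the chronic group. Control arrays 1 and 3 lay below all 6 MPTP arrays, whereas control 2 lay above all 3 acute arrays and above chronic 2. The control group therefore overlapped both MPTP groups, while the chronic arrays all lay above the acute arrays, by as little as 0.0084.

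For the choline transporter, Slc5a7, the control arrays read 7.88, 8.99 and 8.34, the acute arrays 8.71, 8.56 and 8.82, and the chronic arrays 9.11, 8.80 and 9.62. The means were 8.40 ± 0.56 (SD, n = 3), 8.70 ± 0.13 (n = 3) and 9.18 ± 0.41 (n = 3). The pattern was that of Chat, with controls 1 and 3 below every MPTP array and control 2 above chronic 2, and here the chronic and acute arrays overlapped.

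For the vesicular transporter, Slc18a3, the control arrays read 7.38, 8.46 and 7.93, the acute arrays 7.84, 8.19 and 8.25, and the chronic arrays 8.11, 8.23 and 8.50. The means were 7.93 ± 0.54 (SD, n = 3), 8.09 ± 0.22 (n = 3) and 8.28 ± 0.20 (n = 3). The groups overlapped in all 3 comparisons, control 2 being above all MPTP arrays but chronic 3.

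For the degrading enzyme, Ache, the control arrays read 9.39, 10.34 and 10.35, the acute arrays 9.43, 9.84 and 10.03, and the chronic arrays 9.87, 10.15 and 9.96. The means were 10.03 ± 0.56 (SD, n = 3), 9.76 ± 0.31 (n = 3) and 9.99 ± 0.14 (n = 3). Ache was thus the member without the ascending order: its highest arrays were controls 2 and 3 and its lowest control 1, which enclosed all MPTP arrays.

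For the transcription factor, Lhx8, the control arrays read 6.70, 7.59 and 7.40, the acute arrays 7.14, 7.17 and 7.67, and the chronic arrays 7.47, 7.22 and 7.67. The means were 7.23 ± 0.47 (SD, n = 3), 7.33 ± 0.30 (n = 3) and 7.46 ± 0.23 (n = 3), and the groups overlapped in every comparison. For the glutamate transporter, Slc17a8, the control arrays read 7.18, 7.22 and 6.88, the acute arrays 7.55, 7.27 and 7.28, and the chronic arrays 7.58, 7.12 and 7.59. Its means were 7.09 ± 0.18 (SD, n = 3), 7.37 ± 0.16 (n = 3) and 7.43 ± 0.27 (n = 3). Slc17a8 was the only member whose acute arrays all lay above the control arrays, by at least 0.05, while chronic 2 fell among the controls.

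**Figure D1:**
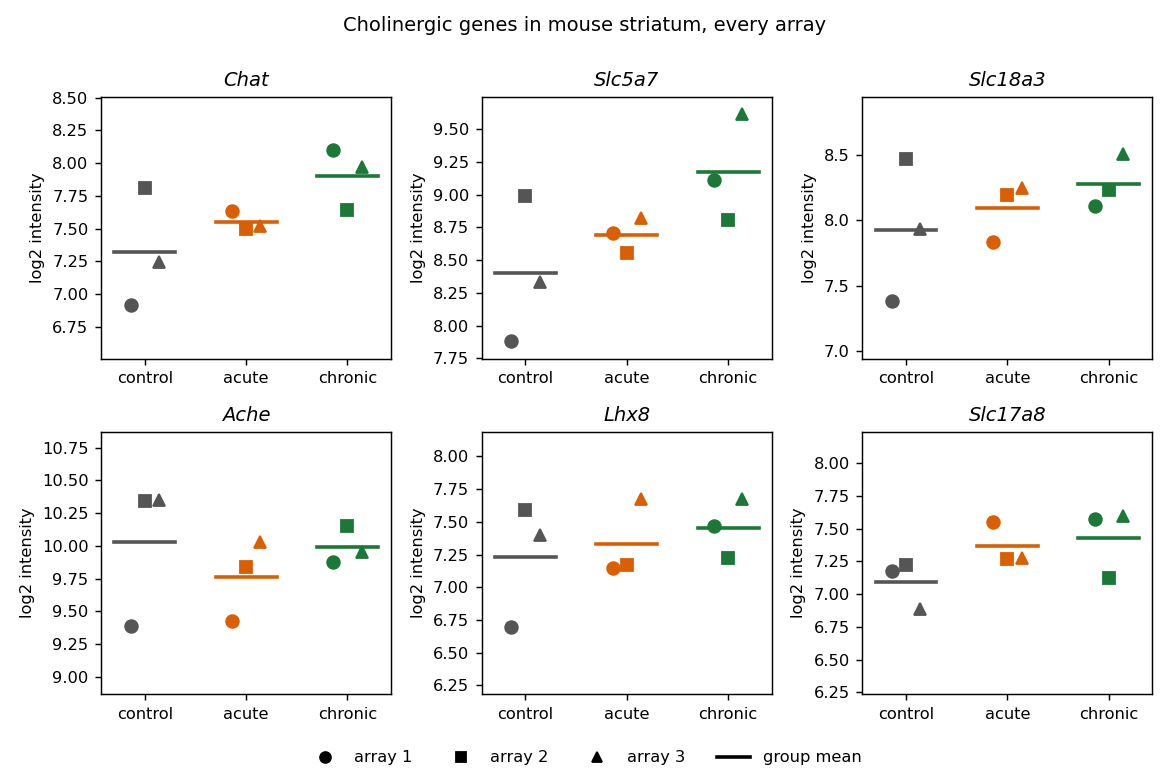
Log2 intensity of each gene on each array, by group; symbols give the array number, horizontal bars the group means, and every panel spans 2 log2 units. Control 1 is the lowest array in 5 of the 6 panels, and control 2 lies above at least 1 chronic array in all 6 panels.

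The first comparison, acute MPTP against saline at the same time after injection, had 5 members with a higher mean and Ache with a lower one. The differences were 0.23 ± 0.21 (log2, SE) for Chat, 0.29 ± 0.28 for Slc5a7, 0.17 ± 0.25 for Slc18a3, -0.26 ± 0.26 for Ache, 0.10 ± 0.24 for Lhx8 and 0.27 ± 0.15 for Slc17a8. Each was smaller than the SD of the more variable group, except that of Slc17a8. No member passed the test at an adjusted p of 0.05 (limma, Benjamini-Hochberg over all probe sets tested, adjusted p = 1 for all 6), where 0% of all probe sets passed. At an unadjusted p under 0.05 no member was higher, against 0.416% of all probe sets. Slc17a8 was the 1 member of 6 whose groups did not overlap upwards, against 2.06% of all probe sets, and its exact two-sided permutation p of 0.1 is the smallest that 3 arrays against 3 can give. The median over the members was 0.20, against 0.0036 over all probe sets, of which 51.5% had a higher mean.

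The second comparison, chronic MPTP against saline, gave the largest differences of the transmitter genes. Slc5a7 was 0.77 ± 0.28 (log2, SE) higher, a ratio of 1.71 with a 95% interval of 1.11 to 2.64, and Chat was 0.58 ± 0.21 higher, a ratio of 1.50 with an interval of 1.08 to 2.07. Both differences exceeded the SD of the more variable group, and both had an unadjusted p under 0.05 in limma (0.0206 for Chat and 0.0210 for Slc5a7). Over the 16335 probe sets their adjusted p was 0.876 in limma, so neither passed, and their exact two-sided permutation p was 0.2. Both stayed higher without any 1 control array. In same-numbered pairs of arrays, Chat differed by 1.18, -0.17 and 0.73, and Slc5a7 by 1.23, -0.19 and 1.28.

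The other members differed by less between the chronic and control groups: 0.35 ± 0.25 (log2, SE) for Slc18a3, -0.03 ± 0.26 for Ache, 0.23 ± 0.24 for Lhx8 and 0.34 ± 0.15 for Slc17a8. Their adjusted p in limma ran from 0.910 to 0.992. Again 5 members had a higher mean and 0 of 6 passed, against 0% of all probe sets, with a smallest adjusted p over all probe sets of 0.876. At an unadjusted p under 0.05, 2 of 6 members were higher, against 2.85% of all probe sets. No member's groups were separated upwards, against 2.88% of all probe sets. The members' median was 0.35, against -0.01 over all probe sets, of which 46.7% had a higher mean. The intervals, from a fit that does not use the same-numbered pairs of arrays, leave a wide range for each gene. They ran from -0.20 to 0.91 for Slc18a3 and from -0.61 to 0.55 for Ache.

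Between the MPTP groups, which had received the same total dose, all 6 members had a higher mean in the chronic group. The differences were 0.48 ± 0.28 (log2, SE) for Slc5a7, 0.35 ± 0.21 for Chat, 0.23 ± 0.26 for Ache, 0.19 ± 0.25 for Slc18a3, 0.13 ± 0.24 for Lhx8 and 0.07 ± 0.15 for Slc17a8. Those of Slc5a7 and Chat exceeded the SD of the more variable group and the others did not. In same-numbered pairs of arrays Chat, Slc5a7, Slc18a3 and Lhx8 were higher in the chronic array in 3 of 3 pairs, by as little as 0.0040 for Lhx8, and Ache and Slc17a8 in 2 of 3. None passed (adjusted p from 0.877 to 0.957 in limma), where 2 probe sets did, those of the activity-regulated genes Arc and Nr4a1, or 0.0122% of all. No member was higher at an unadjusted p under 0.05, against 2.36% of all probe sets. Chat was the 1 member whose groups did not overlap upwards (exact permutation p = 0.1), against 3.61% of all probe sets. The members' median was 0.21, against -0.01 over all probe sets, of which 46.1% were higher. The comparisons share arrays, so the same order of means recurring across them is not independent.

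The order of the group means was control, acute, chronic for 5 members and acute, chronic, control for Ache. Of the neighbours in those orders, only chronic and acute for Chat and Slc5a7 and acute and control for Slc17a8 were further apart than the SD of the more variable group.

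The arrays also differed in their levels of marker genes of neighbouring brain regions. Ppp1r1b, which encodes DARPP-32 of the striatal projection neurons, was at 11.44 to 12.31 on all arrays. The cortical transporter Slc17a7 was at 11.75 to 12.28 on control 1 and acute 1 and 2, against 8.14 to 9.66 on the other 6 arrays. The thalamic and hypothalamic transporter Slc17a6 read 10.59 and 9.43 on control 3 and acute 3 and 6.42 to 8.51 on the other 7 arrays. The choroid plexus gene Ttr read 12.56 and 13.37 on the same pair of arrays. No marker gene is listed at 0, since the lowest values on the arrays are 4.27 to 4.31.

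In the 3 arrays high in cortical genes, Chat ran from 6.92 to 7.64, and in control 3 and acute 3 it read 7.24 and 7.52. In the remaining 4 arrays (control 2 and the chronic arrays) Chat ran from 7.64 to 8.10. Slc5a7 ran from 7.88 to 8.71 in the first set, read 8.34 and 8.82 in the second and ran from 8.80 to 9.62 in the remaining 4. Slc18a3 ran from 7.38 to 8.19 in the first set, read 7.93 and 8.25 in the second and ran from 8.11 to 8.50 in the remaining 4. Slc17a8 showed no such order: it ran from 7.18 to 7.55 in the first set, within the 6.88 to 7.59 of the other 6 arrays. Ache ran from 9.39 to 9.84 in the first set, below the 9.87 to 10.35 of the other 6 arrays. Lhx8 likewise ran from 6.70 to 7.17 in the first set, below 7.22 to 7.67. The 4 arrays outside both sets were the arrays highest in Chat, and 3 of them form the chronic group.

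The marker lists are given per group as means of each gene's log2 deviation from its own mean over the arrays. The striatal projection neuron list was at -0.44 to 0.10 in the control arrays, -0.01 to 0.04 in the acute arrays and 0.19 to 0.33 in the chronic arrays. Of its 17 tested genes, 17 had a higher mean in the chronic than in the control group, with a median difference of 0.52. The list of other striatal interneurons, which shares Cck with the cerebral cortex list, did not follow it. It was at -0.13 to 0.30 in the control arrays, -0.16 to 0.07 in the acute arrays and -0.18 to -0.06 in the chronic arrays. In chronic against control 6 of its 14 genes were higher. The cerebral cortex list was at -0.39 to 0.96, -0.47 to 0.85 and -0.66 to -0.31 in the control, acute and chronic arrays, and 13 of its 16 tested genes were lower in the chronic than in the control group. The thalamus and hypothalamus list was at -0.36 to 1.18, -0.47 to 0.60 and -0.49 to 0.09, with 15 of 17 genes lower in that comparison.

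Cholinergic neurons also lie in the basal forebrain and in the medial habenula. The basal forebrain and pallidum list was at -0.28 to 0.57 in the control arrays, -0.52 to 0.29 in the acute arrays and -0.17 to 0.10 in the chronic arrays, and 5 of its 13 tested genes had a higher mean in the chronic than in the control group. The medial habenula list was at -0.02 to 0.17, -0.16 to 0.20 and -0.31 to 0.09, with 4 of 7 genes higher. Pou4f1, which defines habenular neurons, read 4.97 to 5.26 on all arrays and did not pass the filter. Tac2, a tachykinin of the medial habenula and of other forebrain neurons, ran from 6.85 to 10.20 and was highest on controls 2 and 3.

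**Figure D2:**
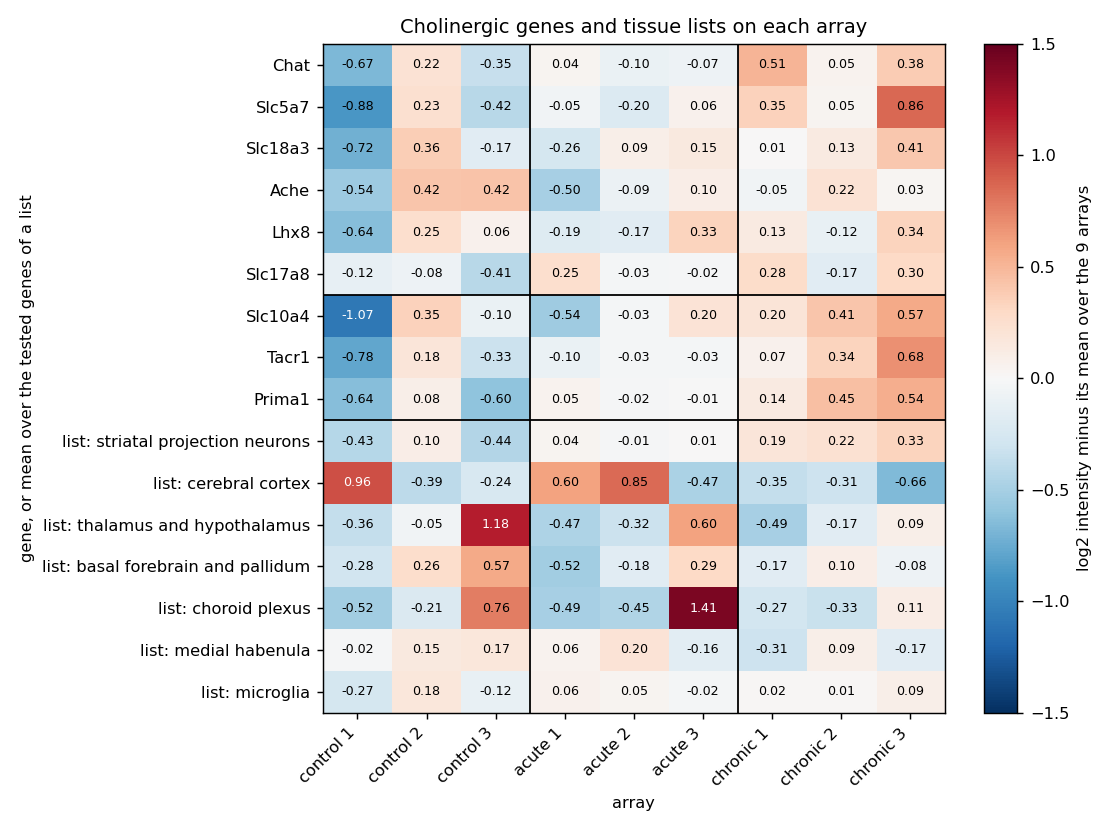
Log2 intensity on each array minus its mean over the 9 arrays, for the 6 genes, for 3 further genes of cholinergic neurons or their cholinesterase, and for the mean of 7 marker lists (colour scale -1.5 to 1.5). Control 1, at -0.67 for Chat and -0.88 for Slc5a7, is also the array highest in the cortex list (0.96), and the chronic arrays are the highest in the projection neuron list (0.19 to 0.33).

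The differences were refitted with these lists as covariates, which a design of 9 arrays can bear only loosely. With the cortex and the thalamus and hypothalamus list means in the model, the chronic against control difference was 0.05 ± 0.21 (log2, SE) for Chat, 0.17 ± 0.28 for Slc5a7, -0.06 ± 0.27 for Slc18a3, -0.18 ± 0.27 for Ache, -0.14 ± 0.17 for Lhx8 and 0.09 ± 0.21 for Slc17a8. In that model all 6 members were lower in the chronic than in the acute group, from -0.05 for Ache to -0.34 for Lhx8. The acute against control differences moved less, to 0.21 for Chat, 0.33 for Slc5a7, 0.23 for Slc18a3, -0.13 for Ache, 0.20 for Lhx8 and 0.21 for Slc17a8. With the projection neuron list as the covariate, chosen after the data were seen, the chronic against control difference was -0.07 ± 0.25 for Chat, -0.14 ± 0.31 for Slc5a7 and -0.40 ± 0.30 for Slc18a3. None of these values passed in limma (adjusted p = 1 for each). With the choroid plexus list instead, the chronic against control difference was 0.58 ± 0.22 for Chat and 0.80 ± 0.28 for Slc5a7. Their intervals were 0.08 to 1.08 and 0.16 to 1.44, and their adjusted p of 0.751 in limma did not pass. The difference was 0.38 for Slc18a3, 0.017 for Ache, 0.28 for Lhx8 and 0.32 for Slc17a8. Without control 3 and acute 3, high in choroid plexus genes, Chat was 0.54 (-0.07 to 1.15) and Slc5a7 0.74 (-0.08 to 1.56). The projection neuron list did not overlap between these groups, at 0.19 to 0.33 in the chronic and -0.44 to 0.10 in the control arrays. A fit with it as covariate can therefore take away a group difference as well, and cannot tell the list and the group apart. The part of the dissection in the members' differences was not tested beyond these fits.

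**Figure D3:**
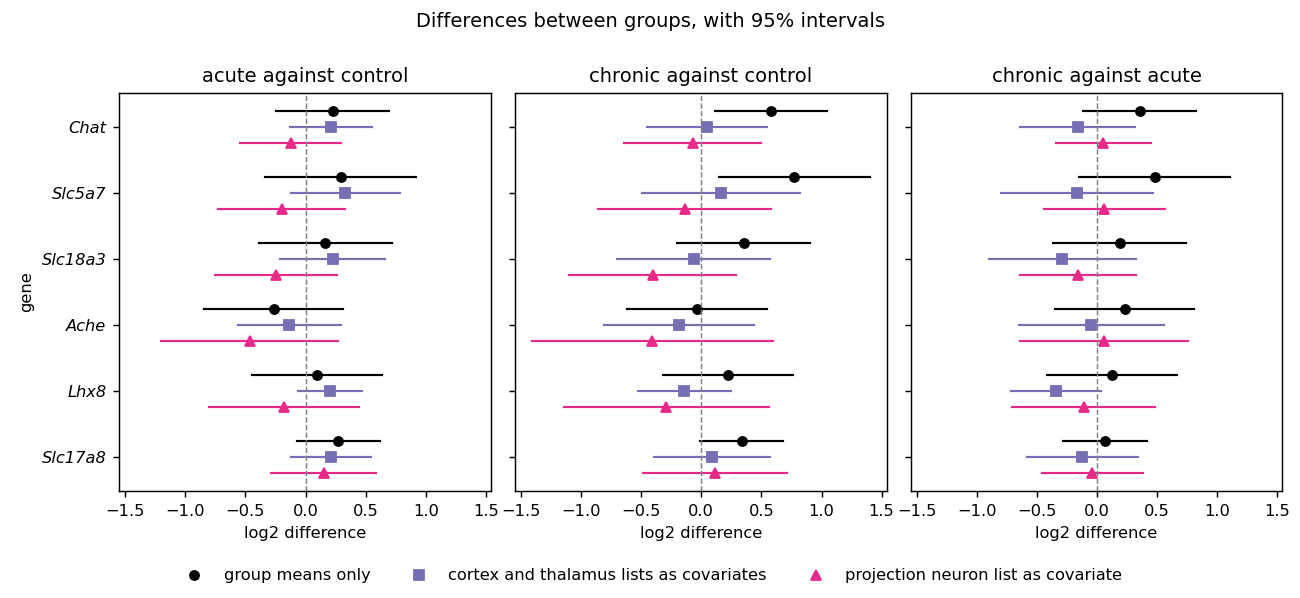
Log2 differences between groups for each gene with 95% intervals from limma, fitted with group means only, with the cortex and the thalamus and hypothalamus list means as covariates, or with the striatal projection neuron list mean as covariate. Of the fits shown, only the group-means intervals of Chat and Slc5a7 in chronic against control lie above 0. With either of these sets of covariates all intervals include 0.

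Single arrays also changed the size of these values and, for some members, their sign. Without control 1, the array highest in the cortex list, the chronic against control difference was 0.38 for Chat, 0.51 for Slc5a7, 0.08 for Slc18a3, -0.35 for Ache, -0.04 for Lhx8 and 0.38 for Slc17a8. Without control 2 it was 0.82 for Chat, 1.07 for Slc5a7 and 0.62 for Slc18a3, and the adjusted p of Chat in limma was 0.143, the smallest of any member under any setting. The acute against control differences of Chat, Slc5a7 and Slc18a3 were 0.024, 0.030 and -0.11 without control 1 and 0.47, 0.59 and 0.43 without control 2.

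**Figure D4:**
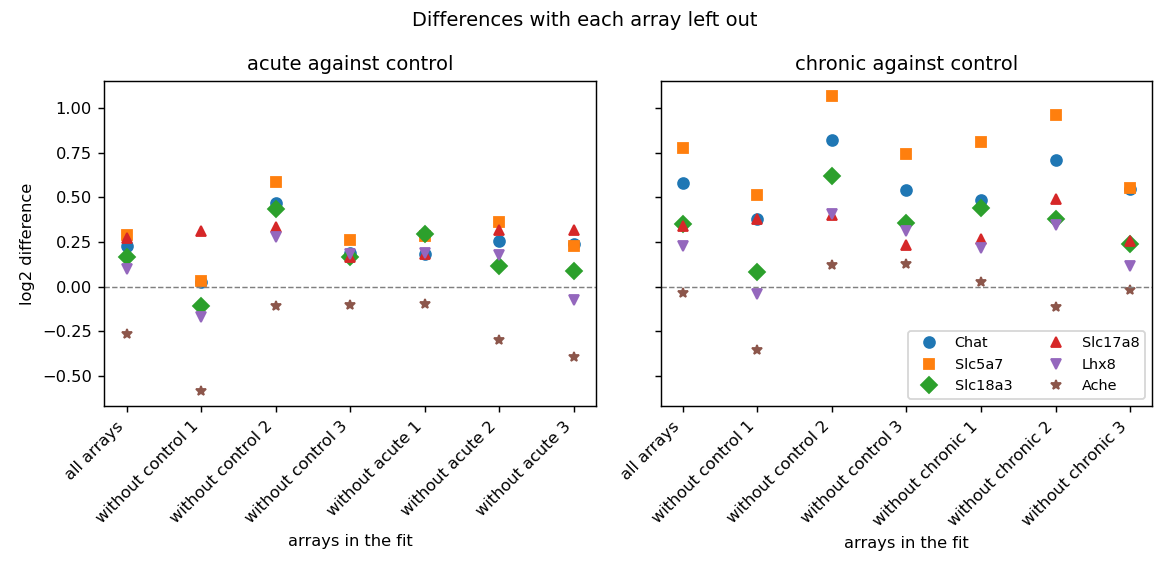
Log2 difference of each gene from all arrays and with each array of the compared groups left out in turn, for acute against control (left) and chronic against control (right). Leaving out control 1 lowers the differences of 5 genes and leaving out control 2 raises them in both panels, and Slc17a8 moves the least with control 1.

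Other genes of acetylcholine handling were described from 4 lists, in which 0 genes passed in any of the 3 comparisons. In the list of synthesis, release and breakdown partners, 12 of 15 genes were tested, and 6, 7 and 9 of them had a higher mean in acute against control, chronic against control and chronic against acute. Prima1, the membrane anchor of Ache, read 7.76, 8.48 and 7.80 in the control arrays, 8.45, 8.38 and 8.39 in the acute arrays and 8.53, 8.85 and 8.94 in the chronic arrays. All chronic arrays lay above all control arrays, and the difference was 0.76 ± 0.19 (log2, SE) with an adjusted p of 0.876 in limma. It was 0.34 with the cortex and thalamus covariates and 0.06 with the projection neuron covariate. For Ache the same difference was -0.03.

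Slc10a4, a vesicular transporter of cholinergic and monoamine neurons, read 7.49, 8.90 and 8.46 in the control arrays, 8.02, 8.52 and 8.76 in the acute arrays and 8.76, 8.97 and 9.13 in the chronic arrays. Its chronic against control difference was 0.67 ± 0.33 (log2, SE, adjusted p = 0.926 in limma), and control 1 was again the lowest array. The difference was 0.22 with the cortex and thalamus covariates and -0.17 with the projection neuron covariate. Bche, the second cholinesterase, differed by -0.33 ± 0.20 in acute against control and by 0.39 ± 0.20 in chronic against acute.

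In the list of cholinergic identity and trophic genes, 9 of 10 were tested, and 3, 5 and 6 of them had a higher mean in the 3 comparisons in the same order. Tacr1, the substance P receptor, which these interneurons carry, read 8.36, 9.32 and 8.81 in the control arrays, 9.04, 9.11 and 9.11 in the acute arrays and 9.21, 9.48 and 9.83 in the chronic arrays. The chronic against control difference was 0.67 ± 0.23 (log2, SE, adjusted p = 0.876 in limma), and it was 0.30 with the cortex and thalamus covariates and -0.079 with the projection neuron covariate. Isl1, a LIM homeodomain factor that acts with Lhx8 but is also present in direct-pathway projection neurons, ran from 7.46 on control 1 to 8.44 on acute 3 and differed by 0.25 ± 0.22. Drd5, the dopamine receptor D5, differed by -0.16 ± 0.09 in acute against control, Gbx1, a homeodomain factor, by -0.15 ± 0.12 in chronic against control, and the neurotrophin receptor Ngfr by 0.38 ± 0.21 in chronic against acute.

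All 5 muscarinic receptors were tested, and 3, 2 and 3 had a higher mean in the 3 comparisons. In chronic against control, Chrm4, which is an autoreceptor of these interneurons and abundant in direct-pathway neurons, differed by 0.64 ± 0.23 (log2, SE, adjusted p = 0.876 in limma). Chrm3, which the cortex expresses strongly, differed by -0.60 ± 0.26 (adjusted p = 0.899). With the cortex and thalamus covariates these became 0.24 and -0.26. Chrm2, the autoreceptor M2, differed by -0.28 ± 0.29 and read highest, 10.31, on control 3. In acute against control, Chrm5 differed by -0.31 ± 0.25 and Chrm4 by 0.33 ± 0.23. In chronic against acute, Chrm3 differed by -0.73 ± 0.26 (adjusted p = 0.877 in limma) and Chrm4 by 0.31 ± 0.23. With the cortex and thalamus covariates the chronic against acute values became -0.27 and -0.07.

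Of 18 nicotinic receptor subunits and chaperones 14 were tested, and 5, 4 and 6 had a higher mean. Chrna4 differed most by p in chronic against control, by -0.63 ± 0.32 (log2, SE, adjusted p = 0.926 in limma), and by -0.0029 with the cortex and thalamus covariates. Chrnb4 differed by 0.19 ± 0.10 in the same comparison. In acute against control the chaperone Tmem35a differed by -0.31 ± 0.18 and Chrnb1 by 0.12 ± 0.08, and Chrna2 by -0.15 ± 0.11 in chronic against acute. Chrna6, the subunit of dopamine terminals, read 5.10 to 5.39 and did not pass the filter. Genes of dopamine neurons, whose mRNA is made mostly in the midbrain, passed the filter in 11 of 14 cases, and 0 of these passed the test. Th differed by -0.21 ± 0.39 in acute against control and 0.17 ± 0.39 in chronic against control, and Slc6a3 by -0.27 ± 0.10 and -0.09 ± 0.10.

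Among the members, Chat and Slc5a7 varied most closely together across the 9 arrays, with Pearson's r of 0.926 and Spearman's rho of 0.933 (exact permutation p adjusted over 15 pairs 0.0091 and 0.0112). Without control 1 and chronic 1, the arrays farthest from the median of Chat, r was 0.93. Of the 15 pairs, 14 had r above 0, 4 passed by r and 2 by rho. Slc18a3 and Lhx8 passed by both (r = 0.855, adjusted exact permutation p 0.0263; rho = 0.850, 0.0456), but r was 0.49 without control 1 and acute 1. Slc5a7 passed by r with Slc18a3 (0.847) and with Lhx8 (0.799), and without control 1 and chronic 3 these fell to 0.51 and 0.42. These 3 relations thus depend in part on the arrays left out, whereas r of Chat with Slc5a7 did not fall without its own. The arrays left out were not the same for each pair. Without control 1 alone, r was lower for all 4 pairs. It was 0.86 for Chat with Slc5a7 and 0.70 for Slc5a7 with Slc18a3. For Lhx8 it was 0.60 with Slc5a7 and 0.64 with Slc18a3. No test was run on the arrays that remained. For deviations from the group means, the 4 pairs that passed by r had like values: 0.86 for Chat with Slc5a7, 0.84 for Slc5a7 with Slc18a3, 0.85 for Slc5a7 with Lhx8 and 0.84 for Slc18a3 with Lhx8. Chat and Slc18a3, which share a locus, did not pass (r = 0.755, rho = 0.583, adjusted exact permutation p 0.0603 and 0.180), and r was 0.47 without control 1. Ache and Slc17a8 had the 1 negative value (r = -0.472, rho = -0.417, adjusted exact permutation p 0.275 and 0.337). These are the same arrays whose levels of regional marker genes differed as given above, and the part of those differences in r was not tested. Each replicate number has too few arrays for a value of its own.

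A score was made of the mean standardised value of Chat, Slc5a7 and Slc18a3, and 16332 other probe sets were ranked by their correlation with it over the 9 arrays, as a description. The most alike were Ebf1 (r = 0.977), a transcription factor of direct-pathway projection neurons, the small GTPase Rem2 (0.951), Pde7b (0.950), Itgam (0.949), Cd180 (0.944), Tacr1 (0.941), Padi2 (0.936) and Nt5e (0.934). Itgam and Cd180 are genes of microglia and other myeloid cells, and Pde7b is a phosphodiesterase abundant in striatum. With deviations from the group means in place of the values, Ebf1, Itgam, Cd180, Pde7b and Padi2 were again among the first 8, joined by the microglial complement gene C1qa (0.977), Gpr137b-ps (0.957) and Ankdd1a (0.949). The microglia list was lowest on control 1 (-0.27) and highest on control 2 (0.18), as the score was among the control arrays. That list includes Itgam and C1qa, named above for following the score, so its likeness to the score is partly built in. Being lowest on control 1 was not particular to microglia. It also held for the oligodendrocyte (-0.36) and astrocyte (-0.17) lists and for the acetylcholine partner (-0.21) and cholinergic identity (-0.30) lists. It did not hold for every list, the cortex list being highest there (0.96). Of the cholinergic genes outside the score, Slc10a4 ranked 43 (r = 0.898), Prima1 90 (0.869), Lhx8 188 (0.829), Slc17a8 1696 (0.551), Ache 2607 (0.454) and Chrm2 9229 (-0.078). Of the cholinergic identity list, Ngfr ranked 239 (0.811), Lhx6 918 (0.663) and Isl1 1109 (0.631). The dopamine receptor genes Drd2 and Drd1 ranked 150 (0.844) and 194 (0.826). Ppp1r1b of the projection neurons ranked 125 (0.850). It stood ahead of Lhx8 in this order, and behind it by deviations from the group means, where Lhx8 ranked 100 (0.862) and Ppp1r1b 257 (0.798).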

How the data were processed

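The values are those the authors deposited: log2 intensities of 28815 probe sets on 9 arrays, the scale being read from the values. Background correction, normalization and summary are not given in the sources used here. Per the labels' protocols, 200 ng of total RNA was labelled with the Ambion WT Expression kit. The quartiles were alike on all arrays (medians 6.85 to 6.90), so nothing was rescaled, and the number of arrays limits the precision.

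Arrays were grouped by their titles. Names came from the platform annotation (21780 probe sets had 1 symbol), and probe sets of 1 symbol with a mean at or above the 25th percentile were tested. Group means were fitted over all 9 arrays with limma 3.58.1 in R 4.3.3, with eBayes and Benjamini-Hochberg adjustment at 0.05, two-sided. Exact permutation tests used scipy 1.17.1. The code was tested on simulated data. The members, the lists and the rule for named genes (the members, fixed context genes, the 2 genes of smallest p per acetylcholine list and comparison, and the 8 genes most like the score) were chosen with earlier results of these data known. Lists share some genes, among them Ngfr, which is on the identity and the basal forebrain lists, and Cck, on the other striatal interneuron and the cortex lists.

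The replicate numbers in the titles were checked for pairing. Across probe sets, what was left after subtracting group means correlated in each of the 9 pairs of arrays with one number (r between 0.157 and 0.673), against -0.609 to 0.184 for other numbers. The numbers therefore count as pairing the arrays, on the evidence of the values alone, since the labels do not say so. The evidence is weakest for control 2, with r of 0.189 with acute 2 and 0.157 with chronic 2. Control 3 and chronic 2, of unlike number, had 0.184. What the arrays of one number share was not tested. The main fit and the exact permutation tests between groups did not use this pairing. Nor did the permutation tests of the gene pairs, which shuffled all 9 arrays across groups and numbers. A fit with the number as a block was run beside them.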

Additional observations from a re-analysis of the deposited data

How the results depend on the processing

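The 18 member differences were recomputed under 21 alternatives, 18 of which apply to any 1 comparison, 324 values in all. None passed the threshold, the adjusted p running from 0.143 to 1 in limma, and 34 changed sign. With the replicate number as a block the chronic against control difference was 0.58 for Chat (adjusted p = 0.341) and 0.77 for Slc5a7 (0.317), and the block changed no member call. In the same comparison Slc17a8 had an unadjusted p of 0.039 in limma with the block and 0.055 without it (adjusted 0.364 and 0.910). The block lowered the SE from 0.26 to 0.16 for Ache and from 0.25 to 0.17 for Slc18a3. For Chat it raised the SE from 0.21 to 0.22. With the cortex and thalamus lists as covariates, the sign turned in chronic against control for Slc18a3 (-0.061), Lhx8 (-0.14) and the members' median (-0.0068). In chronic against acute it turned for Chat (-0.16), Slc5a7 (-0.16), Slc18a3 (-0.29), Ache (-0.048), Lhx8 (-0.34), Slc17a8 (-0.12) and the median (-0.16).

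With the projection neuron list as covariate, the acute against control values were -0.12 for Chat, -0.20 for Slc5a7, -0.24 for Slc18a3, -0.18 for Lhx8 and -0.19 for the median. The chronic against control values were -0.072 for Chat, -0.14 for Slc5a7, -0.40 for Slc18a3, -0.29 for Lhx8 and -0.21 for the median, and the chronic against acute values -0.16 for Slc18a3, -0.11 for Lhx8 and -0.038 for Slc17a8. With the choroid plexus list as covariate, Ache was 0.017 in chronic against control. Without the 3 arrays high in cortical genes, which leaves 1 acute array assumed to vary like the others, Chat was -0.0056 in acute against control, Lhx8 -0.041 in chronic against control, and Ache -0.033 and Lhx8 -0.21 in chronic against acute. Without the 2 arrays high in choroid plexus genes, Ache was 0.13 in chronic against control. The cause of these changes was not tested.

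Leaving out 1 array at a time also turned signs. In acute against control the values ran from -0.11 to 0.43 for Slc18a3, -0.17 to 0.28 for Lhx8 and -0.041 to 0.38 for the median. In chronic against control they ran from -0.35 to 0.13 for Ache and -0.041 to 0.41 for Lhx8, and in chronic against acute from -0.015 to 0.22 for Slc17a8.

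Over all probe sets, 0, 0 and 2 passed in acute against control, chronic against control and chronic against acute, with 139, 900 and 837 at an unadjusted p under 0.05. With only the compared groups in the fit, 1 passed in acute against control and 1 in chronic against acute. In chronic against acute, 1 passed without a filter, 1 with the choroid plexus and 1 with the projection neuron covariate, and 0 with the cortex and thalamus covariates, without the 3 arrays and without the 2 arrays. Leaving out 1 array gave 0 to 2 in chronic against control, the 2 without chronic 1, and 1 to 5 in chronic against acute, the 5 without chronic 1.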
